A study of Mus musculus with 6 samples.

Results

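The genes of the desmosomal cadherins and plakophilins were examined in a list of genomic regions from ATAC-seq, an assay that cuts open chromatin with a transposase. The set has 10 members, of 21887 protein-coding genes in all: the desmocollin genes Dsc1, Dsc2 and Dsc3, the desmoglein genes Dsg1c, Dsg2 and Dsg3, the plakophilin genes Pkp1, Pkp2 and Pkp4, and Dsp, which encodes desmoplakin. The libraries came from basal stem cells of the mouse prostate, 3 from naive and 3 from inflamed organs. Inflammation was set off in POET3 mice, a transgenic strain whose prostate expresses ovalbumin, by transferring activated spleen cells of OT-1 mice, and the prostates were taken after 7 days. Naive libraries are labelled WT and control, and inflamed ones POET3 and inflamed, although the extraction protocol names POET3 mice for both. Genotype as labelled and inflammation therefore cannot be told apart. The labels give no age, no promoter for the transgene, and no word on whether animals were pooled. The cells were used straight after sorting for Sca-1 and CD49f, the latter an integrin of basal cells, and against the leukocyte marker CD45 and the endothelial marker CD31.

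Desmosomes are patches of strong adhesion between epithelial cells. Desmocollins and desmogleins reach across the gap between the cells and bind each other there. Inside the cell their tails are held by the armadillo proteins plakoglobin and the plakophilins, and these bind desmoplakin, which ties the patch to the keratin filaments. Basal layers of stratified and glandular epithelia, the prostate among them, are rich in such contacts.

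The list holds coordinates on genome build mm10 and no value per library. It was read as a list of regions that differ between naive and inflamed cells, from an abbreviation in its name and from the tools in the submitters' processing notes, and it does not say in which group a region was more open. Depth and replicate error are unknown, and no marker level can be read from it to check the labelled cell type. Its 6502 regions came almost all in 1 of 2 widths, 451 bases (3291 regions, 50.6%) or 143 bases (3210 regions, 49.4%), and what the widths stand for is not given in the sources used here. The members were chosen by the positions of listed regions near them, so counts at them are a description and were not tested.

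RefSeq promoter windows were at hand for Pkp4 and Dsp, 3 in all, and a listed region covered 1 of them, at Pkp4. The region spans chr2:59160472-59160922 and holds the whole window of the gene's first start (chr2:59160600-59160899, plus strand, GRCm38.p6, the assembly whose primary chromosomes are those of mm10). Each window runs from 250 bases before a transcript's start to 50 bases after it. Of the 32851 windows in the RefSeq table, 196 (0.597%) lay wholly inside a listed region, and 727 (2.21%) were touched by one. A window of 300 bases cannot fit inside a region of the narrower width (49.4% of the list), which by construction lowers the first share. The members were chosen by region positions, so nothing about Pkp4 is read from either share. The window of Dsp (chr13:38151044-38151343, plus strand) is shown beside that of Pkp4 because Dsp was the member with no region near it. The nearest listed region was 277 kb from this window. Capitals mark matches to GGGCGG, a box bound by SP and KLF factors, and to CCAAT, the box of factor NF-Y, on either strand (CCGCCC and ATTGG on the other).

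Pkp4: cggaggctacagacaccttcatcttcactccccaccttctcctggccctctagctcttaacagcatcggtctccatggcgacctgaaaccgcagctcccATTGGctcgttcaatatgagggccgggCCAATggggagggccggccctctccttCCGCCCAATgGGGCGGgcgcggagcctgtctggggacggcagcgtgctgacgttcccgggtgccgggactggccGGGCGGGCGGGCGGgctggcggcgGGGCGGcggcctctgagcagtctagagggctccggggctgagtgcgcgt
Dsp: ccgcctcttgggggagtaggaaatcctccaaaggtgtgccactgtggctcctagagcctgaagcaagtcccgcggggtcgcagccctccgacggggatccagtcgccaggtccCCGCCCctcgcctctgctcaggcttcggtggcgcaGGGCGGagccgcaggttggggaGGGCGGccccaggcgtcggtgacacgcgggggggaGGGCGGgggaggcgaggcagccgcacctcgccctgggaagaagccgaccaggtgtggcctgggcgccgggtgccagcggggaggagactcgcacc

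Both windows were rich in G and C, 69.3% for Pkp4 and 73.0% for Dsp, against a median of 52.7% over all windows, and each held 27 CpG dinucleotides against a median of 7. The Pkp4 window held 6 matches to GGGCGG and the Dsp window 4, and 35.7% of all windows hold at least 1. CCAAT occurred 3 times in the Pkp4 window, beginning 151, 124 and 93 bases before the transcript's start, and was not found in that of Dsp. It occurs in 37.4% of all windows, and was searched only after the sequences had been seen. The only GGGCGG match read on the other strand of the Pkp4 window overlaps the last CCAAT by 2 letters.

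A second Pkp4 start, at 59161869, has a window of its own (chr2:59161619-59161918) that began 0.697 kb beyond the region. It held no GGGCGG and no CCAAT, and it was the only member window with GGAATG, a TEAD site found in 14.7% of all windows. None of the 3 member windows held TGANTCA, the AP-1 site (7.81% of all windows), AACCNGTT, a GRHL site (2.09%), the TATA box (13.6%) or the full androgen receptor site (0.00913%). Loose patterns for NF-kB and for the p53 family, which includes p63, were in 2 and in 3 of the 3 windows, but also in 50.8% and 70.2% of all windows. Of the members, Pkp4 and Dsp matched the RefSeq promoter table, and Dsc1, Dsc2, Dsc3, Dsg1c, Dsg2, Dsg3, Pkp1 and Pkp2 were not matched.

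At least 1 listed region was centred inside the gene or within 100 kb of it at 9 of the 10 members. The same held for 42.7% of all protein-coding genes and for 52.6% of the 6702 whose span lies within the members' range of 28.9 to 194 kb. Since the choice of members used these positions, nothing is read from that difference. The cadherin genes share windows: 6 regions lay within 100 kb of more than 1 member. Counted once, 17 regions lay at the members, 11 of 451 bases (64.7%) and 6 of 143 bases, and the median was 2.5 regions a member. The median over all protein-coding genes was 0, and it was 1 among those in the members' range of span. With the cadherin cluster taken as 1 locus, 4 of 5 loci had a region.

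**Figure D1:**
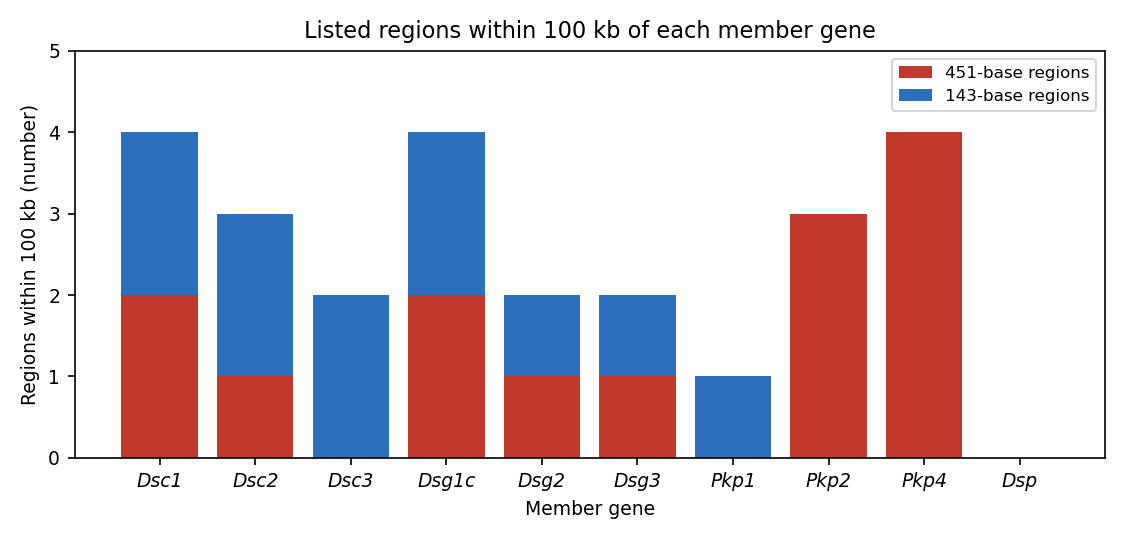
Number of listed regions centred within 100 kb of each member gene, stacked by width (451 bases in red, 143 bases in blue). Dsc1, Dsg1c and Pkp4 have 4 each, Pkp2 and Pkp4 have 451-base regions only, Pkp1 and Dsc3 have 143-base regions only, and Dsp has none. Regions near several cadherin genes are counted at each.

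The cadherin genes lie side by side on chromosome 18, from the low end of Dsc3 at 19960930 to the high end of Dsg2 at 20604526. These 644 kb hold 9 protein-coding genes, the 6 members and Dsg1a, Dsg1b and Dsg4. The cluster and 100 kb to either side held 9 regions, 4 of 451 bases and 5 of 143 bases. That is 10.7 regions per Mb, against 3.06 per Mb on chromosome 18 and 2.41 per Mb over all chromosomes, a density that the choice of this locus used. A cadherin gene was the nearest protein-coding gene of all 9.

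The regions were uneven along the cluster. Counted from its low end, 7 lay between the flank of Dsc3 and the flank of Dsg1c, spaced by 11.0 to 129 kb. Then came 318 kb with none, which hold all of Dsg1c, Dsg1a, Dsg1b, Dsg4 and Dsg3. The other two lay in Dsg2, 14.1 kb apart. The median distance between neighbours in the whole list was 156 kb. Both widths were mixed along the cluster, with 143-base regions at its 2 ends.

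**Figure D2:**
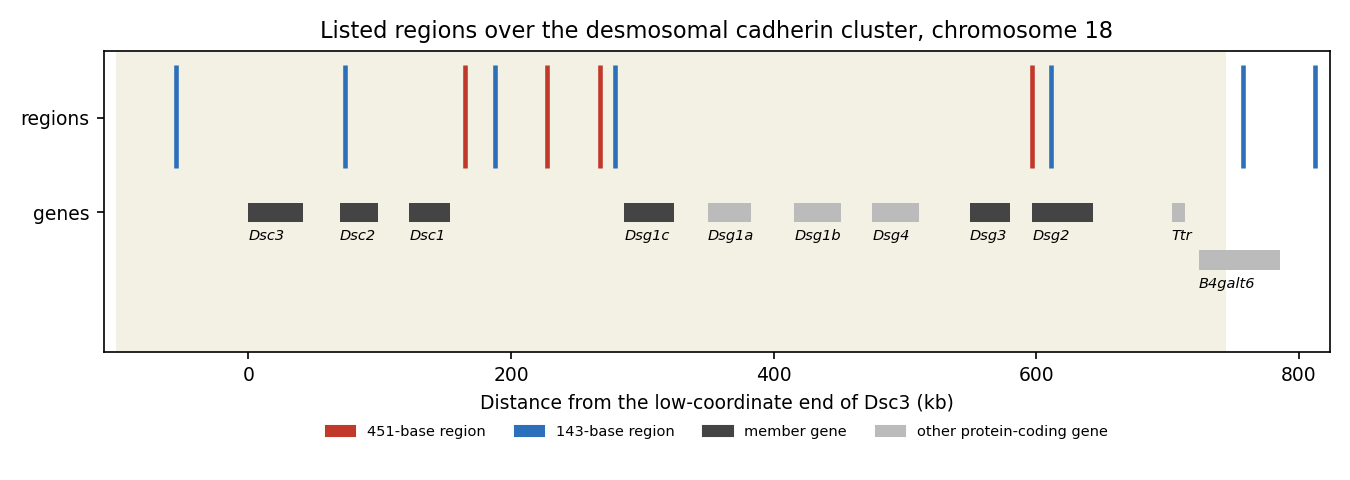
Map of the cadherin cluster in kb from the low-coordinate end of Dsc3, with protein-coding genes as bars (members dark, others grey) and listed regions as vertical lines (451 bases red, 143 bases blue). The shaded part is the cluster with 100 kb on either side and holds 9 regions. The 318 kb gap runs from just below Dsg1c to the low end of Dsg2.

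Desmocollins are the first of the 2 kinds of desmosomal cadherin, Dsc2 being the most widespread form and Dsc3 the form typical of basal cells, while Dsc1 belongs to the upper layers of the epidermis. Dsc2 (NCBI gene 13506, 20030633 to 20059554) was the only desmocollin gene with a region inside it. This region, chr18:20034525-20034667, was 143 bases wide and centred 3.96 kb from the gene's low end. Dsc3 (gene 13507, 19960930 to 20002410) had that region 32.2 kb above its span and another of 143 bases, chr18:19905665-19905807, 55.2 kb below. No region of 451 bases lay within 100 kb of Dsc3, and the first beyond that distance was 123 kb away.

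Dsc1 (gene 13505, 20083471 to 20114773) had 4 regions, none of them inside. Its closest, chr18:20125394-20125844, was 451 bases wide and 10.8 kb above the gene. A 143-base region (chr18:20148918-20149060) followed at 34.2 kb and a 451-base region (chr18:20188423-20188873) at 73.9 kb, and the region inside Dsc2 lay 48.9 kb below. The stretch between Dsc1 and Dsg1c, which holds no other protein-coding gene, carried 5 of the cluster's 9 regions.

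Desmogleins are the other kind, the partners of the desmocollins. Dsg1c (gene 211924, 20247340 to 20285031), 1 of the mouse copies of desmoglein 1, a cadherin of differentiated layers, had 4 regions, all below its low end. The closest, chr18:20239874-20240016, was 143 bases wide and 7.40 kb away. A 451-base region (chr18:20228423-20228873) lay 18.7 kb away, and the regions at 58.7 and 98.4 kb are among those named for Dsc1. On the other side of Dsg1c the next region was 273 kb away. Dsg1a, Dsg1b and Dsg1c are closely related copies, and how the authors treated reads that match several places is not given in the sources used here.

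Dsg2 (gene 13511, 20558074 to 20604526), the desmoglein found in simple as well as layered epithelia, was the only cadherin member with a region over an end of its gene. That region, chr18:20557895-20558345, was 451 bases wide and centred 0.046 kb inside the low end, with 272 bases in Dsg2. It also covered 211 bases of the noncoding RNA gene Gm46630, which overlaps that end. A second region, chr18:20572402-20572544, of 143 bases, lay 14.4 kb inside. Dsg3 (gene 13512, 20510274 to 20541310), the desmoglein of basal cells in skin and mucosa, had no region inside it. Its 2 regions within 100 kb were those of Dsg2, at 16.8 and 31.2 kb, and Dsg3 was the nearest gene of neither.

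Plakophilins are armadillo proteins of the plaque, and Pkp4 (also called p0071) sits in adherens junctions as well and is closest to the p120-catenin group. The 8 regions at the plakophilin members were 7 of 451 bases and 1 of 143 bases, while the cadherin cluster held 4 and 5. Over the whole list, 50.6% were of 451 bases. All 7 lay at Pkp2 and Pkp4, and some were nearest to other genes (Spidr, Yars2, Ccdc148 and Dapl1). Pkp3, which is no member, had 1 region of each width. The contrast in width was not tested. Pkp4 (gene 227937) spans 59160850 to 59355205 on chromosome 2 and, at 194 kb, was the longest member. It had 4 regions, all 451 bases wide. At least 4 were found within 100 kb of 2.82% of all protein-coding genes and of 4.21% of those in the members' range of span.

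The first Pkp4 region, over the promoter shown above, was centred 0.153 kb before the gene's start. Its centre lay inside Ccdc148, a gene read from the opposite strand that ends 21 bases short of Pkp4, so that region lies over the starts of both genes. Of its 451 bases, 357 lay in Ccdc148 and 73 in Pkp4. A region over an end of the gene was found at 2 of the 10 members, Pkp4 and Dsg2, and at 2.12% of all protein-coding genes. The second region, chr2:59286056-59286506, lay inside Pkp4, 125 kb from the start. The others were past the far end, chr2:59416809-59417259 at 61.8 kb, inside the noncoding RNA gene Gm46743, and chr2:59440392-59440842 at 85.4 kb, nearer to Dapl1. No further region lay within 200 kb of the gene.

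Pkp2, the plakophilin of simple epithelia and heart, had 3 regions, again all of 451 bases. The gene (67451) spans 16213345 to 16272712 on chromosome 16. A region inside it, chr16:16253434-16253884, was centred 19.1 kb from its high end. The other two touched other genes. One (chr16:16146523-16146973) lay 66.6 kb below Pkp2 and over the high-coordinate end of Spidr, a DNA repair gene. One (chr16:16302557-16303007) lay 30.1 kb above Pkp2 and over the low-coordinate end of Yars2, a mitochondrial tRNA synthetase gene. The next region beyond these was 350 kb from Pkp2.

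Pkp1, the plakophilin of stratified epithelia, had a single region. The gene (18772) spans 135871394 to 135919207 on chromosome 1. Its region, chr1:135862394-135862536, was 143 bases wide, 8.93 kb below the gene and between it and Tnnt2, a cardiac troponin gene 10.2 kb away. The next region was 766 kb from Pkp1. Pkp1 was thus the only plakophilin member with a 143-base region and without one inside the gene.

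Dsp encodes desmoplakin, the plakin that links the desmosomes of epithelial cells to keratin. The gene (109620) spans 38151294 to 38198577 on chromosome 13, and no listed region lay within 200 kb of it. The nearest was a 451-base region inside Rreb1 (chr13:37873491-37873941), 278 kb below the gene, and the nearest on the other side was 330 kb away. A gene missing from the list may lie next to chromatin that did not change or that fell short of the filter, and the list cannot tell these apart.

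**Figure D3:**
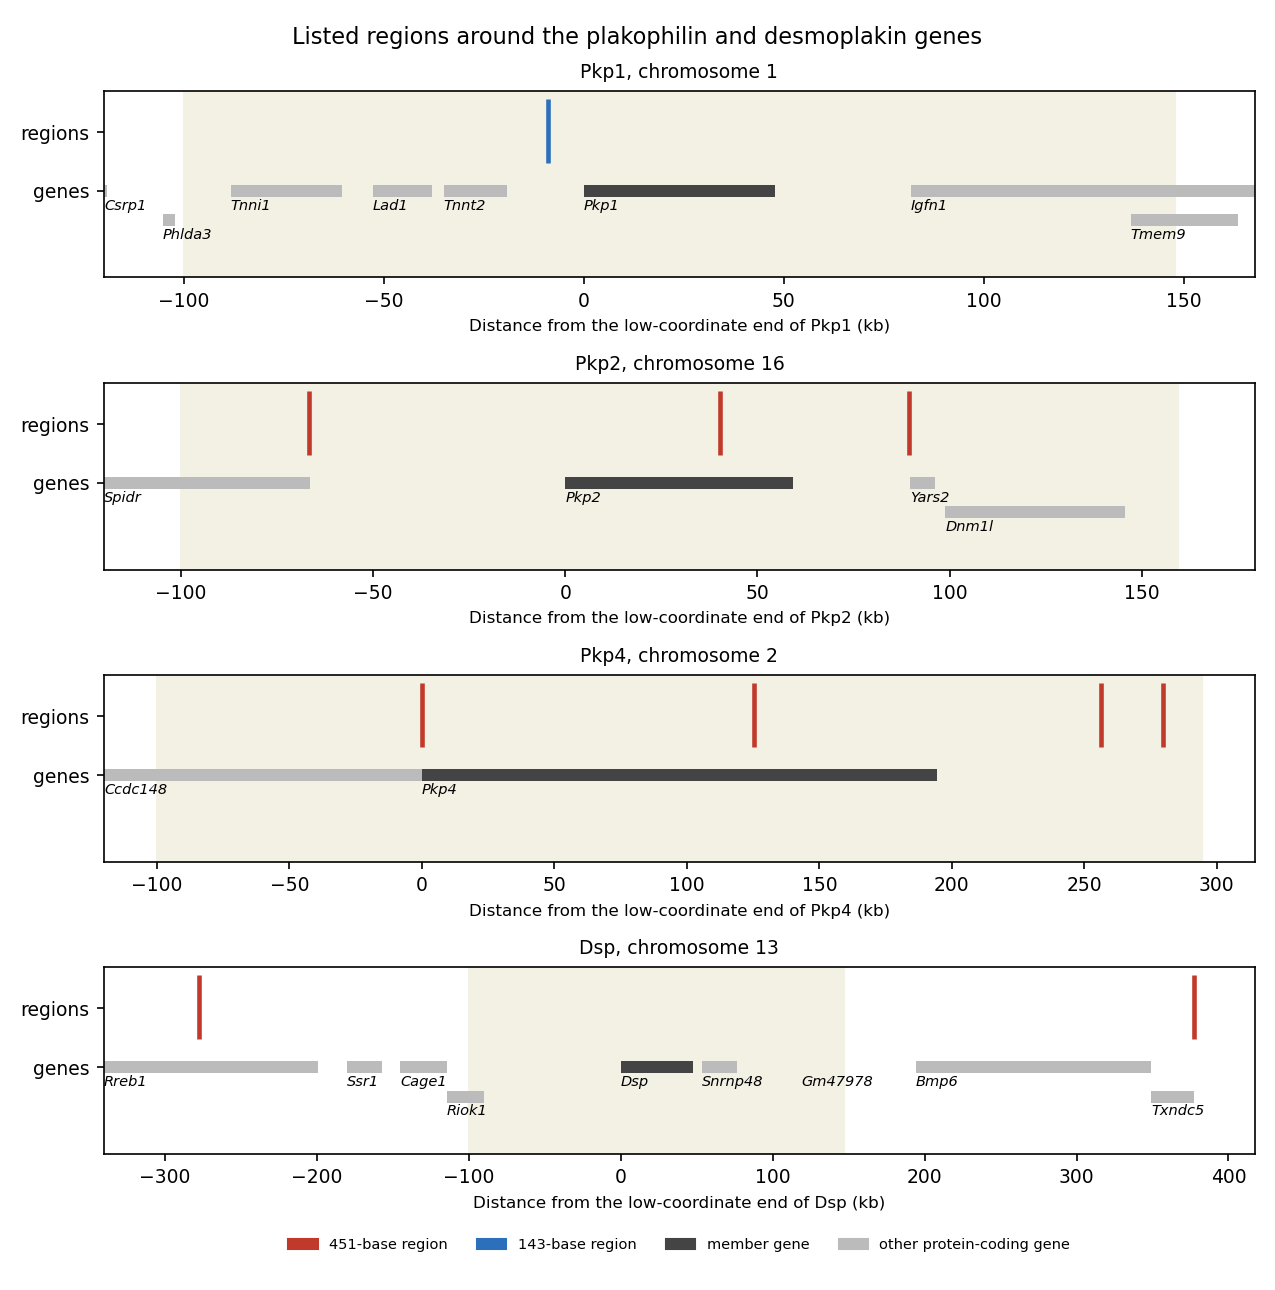
Maps of Pkp1, Pkp2, Pkp4 and Dsp in kb from each gene's low-coordinate end, with protein-coding genes as bars (the member dark, others grey), listed regions as vertical lines (451 bases red, 143 bases blue) and the 100 kb window shaded. Pkp2 and Pkp4 have 3 and 4 regions of 451 bases, Pkp1 has 1 of 143 bases, and the nearest regions to Dsp fall outside its window at 278 and 330 kb.

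Over all members, 5 of the 17 regions were centred inside a member and 7 inside any protein-coding gene, while 47.6% of the whole list lay inside one. Of the members, 4 (Dsc2, Dsg2, Pkp2 and Pkp4) had a region inside, against 10.2% of all protein-coding genes and 18.5% of those in the members' range of span. The members were the nearest protein-coding gene of 13 of the 17 regions. By that stricter rule, 8 members had a region, against 16.9% of all protein-coding genes, and Dsg3 and Dsp had none. The exceptions were the regions at Ccdc148, Dapl1, Spidr and Yars2. Within 1 kb of an end of any protein-coding gene lay 4 of the 17 regions, all 451 bases wide, and 11.3% of the whole list. At 2 of these the end was that of a member, Dsg2 or Pkp4, and the others lay at Spidr and Yars2. Exons and introns were not told apart, since the annotation used gives gene spans only.

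Just inside the limit of 100 kb was the 143-base region chr18:20148918-20149060, 98.4 kb from Dsg1c and 89.4 kb from Dsc2. The same region lay 34.2 kb from Dsc1, so it counts at a member without these distances. Just outside the limit were a 143-base region inside B4galt6, 113.8 kb above Dsg2, and the 451-base region chr18:20228423-20228873, 113.9 kb above Dsc1. A 451-base region lay within 100 kb of 7 members, against 19.7% of all protein-coding genes, and a 143-base region also of 7, against 29%.

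Other genes of the desmosome had regions as well. Of 8 such genes, 6 had a region within 100 kb, beside 42.7% of all protein-coding genes, with a median of 1.5 regions a gene. Perp, a tetraspan desmosome protein and p63 target, had 2 regions of 451 bases, and the closer was centred 0.085 kb outside the gene. Cdsn, which encodes corneodesmosin of the cornified layer, had 3 regions of 143 bases, among them one 0.102 kb inside its end and one 0.272 kb outside it. Pkp3, the plakophilin gene that is no member, had a 451-base region 5.82 kb away, closer to B4galnt4, and a 143-base region 61.5 kb away. Jup, which encodes plakoglobin, had a single 143-base region 49.0 kb away, whose nearest gene was Eif1. In the cadherin cluster, Dsg1a and Dsg4 came within 100 kb of members' regions (70.9 and 86.3 kb), and Dsg1b and Kazn had none.

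Of 6 plakin genes outside the members, relatives of desmoplakin, 2 had a region. Evpl, which encodes envoplakin, had a 143-base region 1.63 kb away, and Macf1, a giant linker of actin and microtubules, had a 143-base region inside it. Ppl, Dst, Plec and Eppk1 had none, with the nearest region 262 to 520 kb away. With Dsp, 5 of 7 plakin genes thus had no region within 100 kb. Dsp is a member chosen by region positions, so nothing is read from that count. The share with a region, 33.3% of the 6, stands beside the 42.7% of all protein-coding genes, and the difference was not tested.

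Adherens junctions hold the classical cadherins and catenins. Of 12 genes, 10 had a region, beside 42.7% of all protein-coding genes. A 143-base region lay within 100 kb of 9 of them, beside 29% of all protein-coding genes. A 451-base region lay within 100 kb of 2 of the 12, beside 19.7% of all protein-coding genes. At 8 of the 10 the regions were of 143 bases only. The matching share over all genes was not counted, so nothing is read from the 8. None of these differences was tested. Afdn, which encodes afadin, had 5 regions, and Ctnnd1, which encodes p120-catenin, had 4, all of 143 bases and all outside the latter gene. Some of these were nearest to other genes, Tcte2 in the case of Afdn and Tfpi in that of Ctnnd1. Cdh1 and Cdh3, the genes of E- and P-cadherin, shared 1 region of 143 bases, 14.4 and 32.0 kb away. Ctnnd2, a neural relative of p120-catenin and of Pkp4, had 451-base regions only, 3 in number and all inside. The first was centred 0.248 kb inside the gene's start. Nectin4, which encodes an adhesion protein of the nectin family, had 2 regions of 143 bases inside it, the nearer 5.76 kb from its end. Arvcf, another p120-catenin relative, had a 143-base region 9.68 kb away, in Tango2, and a 451-base region 97.2 kb away. Cdh2 and Ctnnb1, the gene of beta-catenin, had none within 100 kb.

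Hemidesmosomes fasten basal cells to the basement membrane. Of 6 such genes, 3 had a region. In Col17a1, the gene of a transmembrane collagen, a 143-base region was centred 4.69 kb from its end. Lamb3 had 2 regions of 451 bases, the nearer 21.2 kb away, but their nearest genes were G0s2 and Hsd11b1. Lama3 had 1 of each width, the 451-base one nearest to Ankrd29. Itga6, Itgb4 and Cd151 had none within 100 kb, and Itga6 encodes CD49f, on which the cells were sorted. In all, 21 of 32 of these companion genes had a region, beside 42.7% of all protein-coding genes, and the difference was not tested. Some count through shared regions: Dsg1a and Dsg4 through those of members, and Cdh1 and Cdh3 through the same one.

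**Figure D4:**
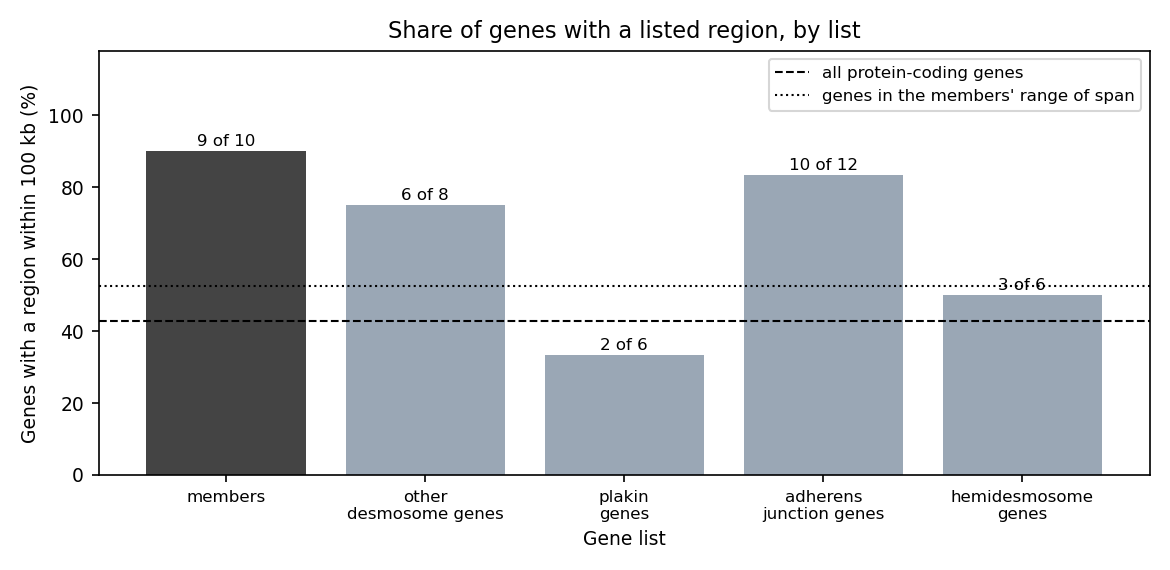
Percent of genes with at least 1 listed region within 100 kb, for the members and the companion lists, with the number of genes above each bar. The dashed line is the 42.7% of all protein-coding genes and the dotted line the 52.6% of those in the members' range of span. Adherens junction genes stand at 10 of 12 and plakin genes at 2 of 6.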

How the data were processed

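ATAC-seq libraries of 3 naive and 3 inflamed samples underlie 1 merged list of regions. The submitters' processing notes name mm10 as the build and, as tools, edgeR, HOMER 4.8, SAMtools and BWA 0.7.17-r1188. Their order, thresholds, filters and any pooling are not given in the sources used here. The deposited values are coordinates in bases, with no value per library, so depth is unknown and no test between groups could be fitted.

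Starts are counted from 0 in the list and printed from 1. Genes are the protein-coding genes of chromosomes 1 to 19, X and Y in a RefSeq table of GRCm38.p6, and all 10 members and 32 companion genes matched it by symbol. A region counts at a gene if its centre lies within 100 kb of the span. An end of a gene is the low-coordinate or high-coordinate end of its span, and may be its start. Where the nearest gene is given, it is the shortest enclosing protein-coding gene, or else the closest. Motifs were searched on both strands of the RefSeq promoter windows. Python 3.11.15, pandas 2.3.3 and SciPy 1.17.1 were used, and the counting code was tested on simulated data.

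The members and lists were chosen with earlier results of these data known. Named are all members, the nearest gene of each of their regions, and of each companion list up to 4 genes whose region was centred closest to an end of the gene. A gene of these lists is not reported here and was left out of their counts. All other genes named were chosen after positions were seen. Other windows, widths and rules of counting were tried.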

Additional observations from a re-analysis of the deposited data

How the results depend on the processing

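No paired analysis was possible because libraries have no values of their own in the list, and for the same reason no library could be left out. The number of members with a region was 9, and it was 8 or 9 with windows of 20, 50 or 200 kb, with any overlap, with close regions merged and with the nearest gene only, and 7 with either width alone. It was 4 of the 10 members with regions inside the span only. With the cadherin cluster as 1 locus, the count was of loci, and 4 of 5 had a region. The 17 regions became 10 at 20 kb, 5 inside the span only, 11 with only regions at least as wide as the median and 6 with only narrower ones. The share of all protein-coding genes with a region, 42.7%, was 60.0% at 200 kb, 29.7% at 50 kb, 19.2% at 20 kb and 10.2% inside the span. It was 19.7% with the wider regions, 29% with the narrower ones, 16.9% by nearest gene and 52.6% in the members' range of span. The alternatives for companion genes were chosen after seeing the data: of 32 genes, 21 had a region, 13 at 20 kb and 8 with only 451-base regions. Each change of window, width or counting rule changes by construction how many regions can count. How near a region stood to the filter before deposit, and its direction, could not be examined.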

Other observations

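Several regions at the members also stood at the ends of other genes. The region over the Pkp4 promoter lay over the start of Ccdc148 as well. The 2 outer regions at Pkp2 covered the high-coordinate end of Spidr, with 329 bases in it, and the low-coordinate end of Yars2, with 43. Strand was not read for Spidr and Yars2, so either end may be a start. With Dsg2, 4 of the 17 regions thus overlapped an end of a protein-coding gene, all of them 451 bases wide. By the looser measure of a centre within 1 kb of such an end, the share of the whole list was 11.3%. Of the 17, 11 were 451 bases wide, and a wider region reaches an end from farther off, so nothing is read from the widths.

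In the cadherin cluster, the 451-base regions chr18:20188423-20188873 and chr18:20228423-20228873 begin exactly 40000 bases apart. Over the whole list, 14 pairs of equal width on the same chromosome begin 39500 to 40500 bases apart, and this pair is the only one at exactly 40000. The distance searched was that of this pair, so nothing is read from its being the only one.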
